A study of Caenorhabditis elegans with 6 samples.

Results

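The nuclear genes of oxidative phosphorylation were followed in the distal gonad of Caenorhabditis elegans as a set of 37 named genes, out of 46934 gene identifiers in the tables. The genes were chosen by symbol, without use of their levels, and all 37 symbols matched 1 identifier each in the WBcel235 annotation. They comprise 8 genes of complex I, 4 of complex II, 7 of complex III, 1 for cytochrome c, 7 of complex IV and 10 of complex V. Of these, 6 lie on the X chromosome and 31 on autosomes.

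RNA came from distal gonad arms of 2 genotypes, wild type (3 libraries) and sin-3(tm1276) (3 libraries), the latter carrying an allele of the gene for SIN-3, a scaffold protein of histone deacetylase complexes. All animals were young adults taken 12 h after the L4 larval stage, and per the labels' protocols each preparation pooled gonads of 5 to 7 animals that had been severed at the bend. Such an arm holds mitotic and early meiotic germ cells with the somatic sheath around them, so fewer cells of a type and less RNA per cell cannot be told apart. The labels name no other allele or treatment. Nor do they say if libraries came from different cultures, and p-values therefore measure the spread between these libraries, which may be technical.

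The respiratory chain passes electrons from NADH (complex I) and succinate (complex II) through ubiquinone to complex III, then by cytochrome c to complex IV, which reduces oxygen, and the proton gradient so made drives the ATP synthase, complex V. Most subunits are encoded in the nucleus, while a core set of complexes I, III, IV and V is encoded in the mitochondrial genome. In the worm germ line the X chromosome is kept largely silent, and for some housekeeping proteins encoded on the X a related autosomal gene is known to be used in germ cells. A known case is subunit b of the ATP synthase, for which asb-1 is the germline form.

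Gene-assigned reads ranged from 24491014 to 30634455 per library. Levels are read counts per gene brought to a common library size (CPM) with factors from the trimmed mean of M values (TMM). Log2 fold changes are above 0 where the mutant was higher. A gene was called where the edgeR quasi-likelihood test gave a Benjamini-Hochberg adjusted p under 0.05 over all 9787 genes tested. The targeted gene sin-3 was at 367, 358 and 369 CPM in the wild-type libraries and 179, 176 and 184 CPM in the mutant libraries. Germ cell markers were abundant in every library, at a summed 3339.5 to 3734 CPM over 12 genes, and 5 of 8 sperm markers had at most 3 counts in each library. The summed somatic gonad markers were higher in the mutant, at 287 to 305 CPM over 15 genes in wild type and 551 to 592 CPM in the mutant. Of these 15 markers 12 were tested, with 8 called higher, 0 lower and 4 not called, and ehn-3 had 0 counts in all libraries. Over all tested genes 31.3% were called higher and 30.7% lower. The most abundant of the 15, let-2 and emb-9, named after their values were seen, went from 100.0 and 73.2 to 222 and 174 mean CPM. Germ cell markers had 2 of 12 called higher and 4 lower, neuron markers 2 of 5 tested lower, and muscle markers 0 of 8 in either direction. The summed muscle markers varied between libraries, at 202, 344 and 349 CPM in wild type and 300, 221 and 187 CPM in the mutant. Hypodermis markers summed to 58.6 to 112 CPM in wild type and 63.5 to 77.7 CPM in the mutant, with 0 of 2 tested called. Whether such tissue came along with the gonads was not tested. Of 7 tested intestine markers ifb-2, at 0.978 to 3.19 CPM per library, was called higher, and the other 6 were not called, at log2 fold changes of -1.46 to -0.68. The summed intestine markers spanned 227 to 598 CPM in wild type and 231 to 283 CPM in the mutant.

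The set moved in both directions. All 6 X-linked genes were higher in the mutant, while ATP synthase genes on autosomes were lower with 1 exception (asg-1, not called) and 4 of 7 nuclear genes of cytochrome c oxidase were higher. Of the 37 genes, 36 passed the filter on low counts, and 15 of these were called higher, 15 lower and 6 not called. Over all tested genes 31.3% were called higher and 30.7% lower, or 62% in either direction. All mutant values lay above all wild-type values for 14 of the 37 genes and below them for 16, against 34.8% and 33% of all tested genes. The median log2 fold change was -0.020 over the set and 0.028 over all genes tested. Scaling by library totals raised log2 fold changes over all genes by a median of 0.17. The set then had 20 genes higher and 11 lower, with a median of 0.15. By that scaling 4446 of all 9787 tested genes were called higher and 1864 lower.

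**Figure D1:**
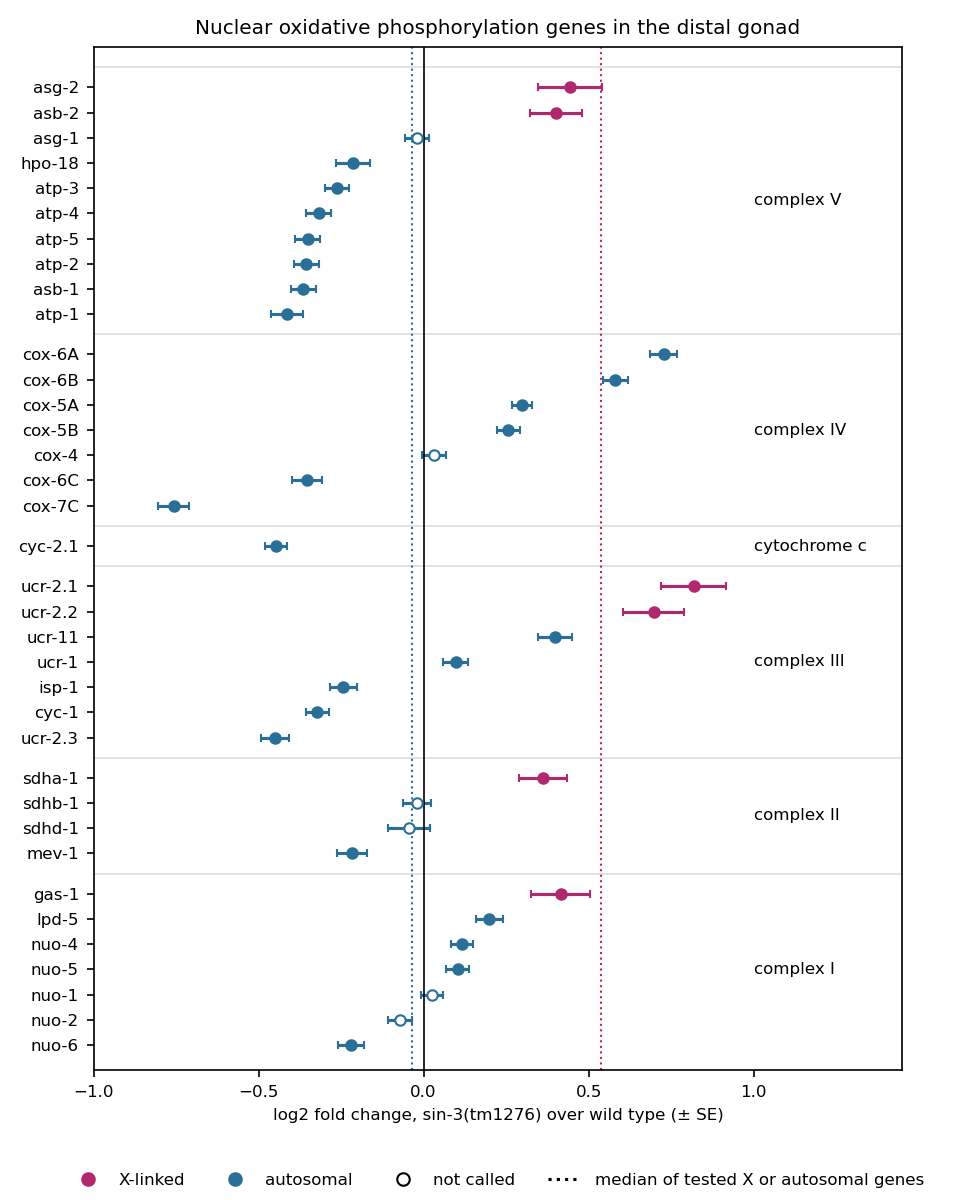
Log2 fold change of each tested gene between sin-3(tm1276) and wild type under TMM scaling, with its standard error, grouped by complex; filled points were called and open points were not. The 6 X-linked genes lie between 0.36 and 0.82, the autosomal genes of complex V at or below -0.020 (asg-1, the least negative, turns to 0.15 under scaling by library totals), and those of complex IV from -0.76 (cox-7C) to 0.73 (cox-6A); dotted lines mark the medians of tested X-linked genes (0.54) and autosomal genes (-0.036).

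Levels between genes were compared as CPM per kilobase of exon. In wild type the highest of the set were atp-2, the catalytic beta subunit of the ATP synthase, at 944 ± 33.6 and the cytochrome c gene cyc-2.1 at 928 ± 21.5 CPM per kb (SD, n = 3), which differed by less than their spread. The tested autosomal genes ranged from 79.4 (mev-1) to 944 CPM per kb, with a median of 221. The 6 X-linked genes were the lowest of all tested genes of the set, between 7.06 (ucr-2.2) and 29.2 (asb-2) CPM per kb. They remained the lowest in the mutant, at 11.1 to 38.5 CPM per kb, below the lowest tested autosomal gene, mev-1, at 68.3. The complex I gene nuo-3 had only 0.185 ± 0.024 CPM in wild type and 0.199 ± 0.15 in the mutant (SD, n = 3) and was not tested. It shares 72.6% of its exon bases with another protein-coding gene on its strand, and reads over several genes are held apart from gene counts in these tables, so its level cannot be read from them. Another 12 genes of the set share exon bases with a neighbour, each at most 4.19% of their own, and for 8 of them (nuo-5, nuo-6, gas-1, mev-1, cyc-1, ucr-2.2, ucr-2.3 and asg-1) the neighbour lies on the other strand.

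X-linked genes of the set were higher in the mutant without exception, and 4 of the 5 autosomal genes for related forms of the same subunits, nduf-2.2, sdha-2, ucr-2.3 and asb-1, were lower under TMM scaling. Under scaling by library totals ucr-2.3 and asb-1 stayed lower, nduf-2.2 was not called at a log2 fold change of -0.040, and sdha-2 turned to 0.062, also not called. All 6 X-linked genes, gas-1, sdha-1, ucr-2.1, ucr-2.2, asb-2 and asg-2, rose, with log2 fold changes from 0.36 to 0.82 and a median of 0.43. For each of them every mutant library lay above every wild-type library. Of X-linked genes in general 61.5% were called higher and 2.97% lower, at a median of 0.54, and for 67.1% the mutant values lay above all wild-type values. Among X-linked protein-coding genes averaging 8 CPM or more these shares were 80.3% called higher and 82.5% without overlap, at a median of 0.46. The 30 tested autosomal genes had 9 higher, 15 lower and 6 not called, at a median of -0.14. Autosomal genes in general were called higher in 26.8% and lower in 34.8%, and autosomal protein-coding genes averaging 64 CPM or more in 21.7% and 52.6%, at medians of -0.036 and -0.12. Under scaling by library totals the autosomal genes of the set had 14 higher and 11 lower and their median turned to 0.024. The 6 X-linked genes stayed higher, at a median of 0.60. By that scaling 4446 of all 9787 tested genes were called higher and 1864 lower.

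The gene gas-1 (X, 15586786 to 15590397) encodes a core subunit of complex I near the quinone site. It was at 16.5, 18.3 and 16.8 CPM in wild type and 25.7, 22.1 and 21.0 CPM in the mutant. The groups did not overlap, and the log2 fold change was 0.41 ± 0.089 (SE), with an edgeR adjusted p of 0.0011. Its autosomal relative nduf-2.2 (III, 6465222 to 6467206) was at 192, 197 and 195 CPM in wild type and 166, 172 and 167 CPM in the mutant, giving a log2 fold change of -0.21 ± 0.033 (SE). All wild-type values of nduf-2.2 lay above all mutant values.

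The flavoprotein of succinate dehydrogenase is encoded by sdha-1 (X, 8542757 to 8546021) and sdha-2 (I, 10683270 to 10685587). The level of sdha-1 was 21.7, 20.4 and 20.0 CPM in wild type and 28.3, 26.3 and 25.3 CPM in the mutant. That of sdha-2 was 309, 305 and 303 CPM in wild type and 283, 288 and 283 CPM in the mutant. The first rose, by 0.36 ± 0.072 on the log2 scale (SE), and the second was lower by TMM scaling, at -0.10 ± 0.030 (SE), in both cases without overlap between genotypes.

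The second core protein of complex III, which belongs to a family of peptidase-like proteins, has 3 genes, ucr-2.1 (X, 12018429 to 12021206), ucr-2.2 (X, 15173904 to 15178145) and ucr-2.3 (III, 879860 to 881458). The level of ucr-2.1 was 11.7, 13.2 and 10.2 CPM in wild type and 21.9, 20.1 and 19.9 CPM in the mutant. That of ucr-2.2 was 9.57, 10.2 and 10.7 CPM in wild type and 16.5, 17.2 and 15.7 CPM in the mutant. Both rose, at log2 fold changes of 0.82 ± 0.100 and 0.70 ± 0.092 (SE), the former being the largest rise of the set. The autosomal ucr-2.3 was at 188, 197 and 206 CPM in wild type and 149, 146 and 137 CPM in the mutant, and it fell by 0.45 ± 0.042 on the log2 scale (SE). In none of the 3 did the genotypes overlap.

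Subunit b of the ATP synthase, part of the stalk that holds the catalytic head, is encoded by asb-1 (III, 4594543 to 4595821) and asb-2 (X, 4469766 to 4471476). The germline form asb-1 was at 269, 282 and 285 CPM in wild type and 207, 224 and 218 CPM in the mutant, giving a log2 fold change of -0.36 ± 0.037 (SE). The X-linked asb-2 was at 31.4, 36.9 and 35.0 CPM in wild type and 51.0, 42.7 and 42.8 CPM in the mutant, giving a log2 fold change of 0.40 ± 0.080 (SE). Neither gene's genotypes overlapped, and asb-1 remained the higher of both per kilobase in every library.

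Subunit g, a small membrane subunit of the ATP synthase, is encoded by asg-1 (I, 8692946 to 8693468) and asg-2 (X, 6841258 to 6842121). The X-linked asg-2 was at 11.9, 13.2 and 15.2 CPM in wild type and 18.98, 18.6 and 17.3 CPM in the mutant, and rose by 0.44 ± 0.098 on the log2 scale (SE). The autosomal asg-1 was at 231, 234 and 254 CPM in wild type and 237, 235 and 237 CPM in the mutant, so its genotypes overlapped. Its log2 fold change was -0.020 ± 0.037 (SE) and an edgeR adjusted p of 0.65, and it turned to 0.15 and was called higher under scaling by library totals.

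**Figure D2:**
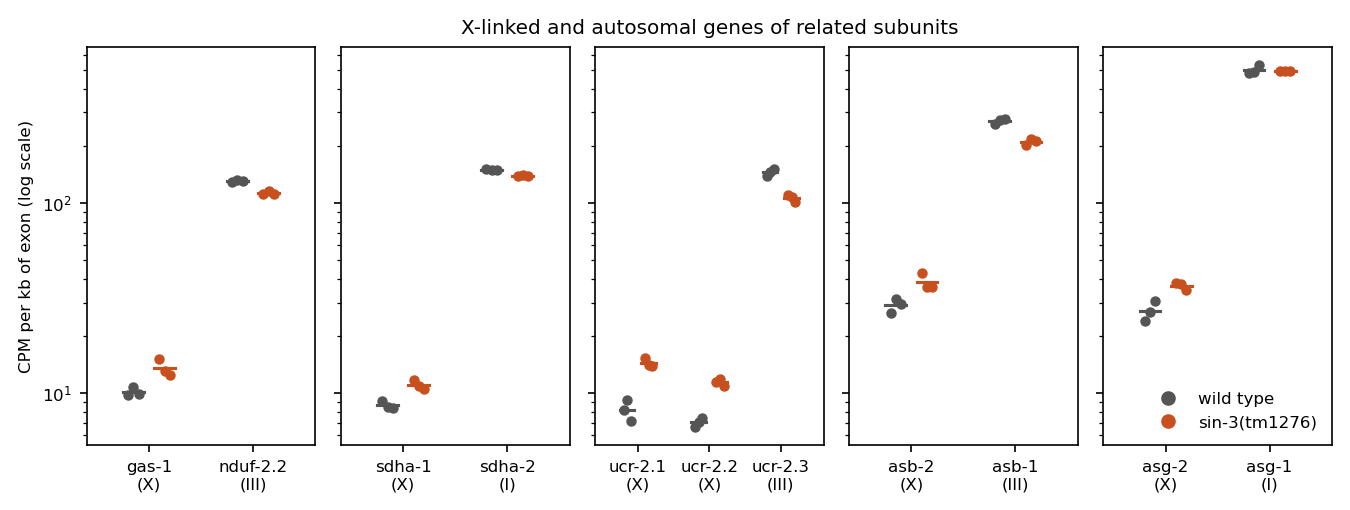
Level of X-linked genes of the set and their autosomal relatives in each library, as CPM per kb of exon on a log axis; points are libraries, bars are means of 3 and the chromosome stands under each name. X-linked genes lie at 7.06 to 38.5 CPM per kb by mean and are higher in all 3 mutant libraries than in any wild-type library, while each autosomal relative is higher than its X-linked counterpart in all libraries.

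The ratio of an X-linked gene to its autosomal relative within a library hardly depends on how libraries are scaled. For ucr-2.1 to ucr-2.3 the log2 ratio was -3.95, -3.85 and -4.27 in wild type and -2.74, -2.83 and -2.75 in the mutant, a 2.38-fold rise of the ratio. For ucr-2.2 to ucr-2.3 it was -4.22, -4.21 and -4.21 in wild type and -3.14, -3.05 and -3.08 in the mutant, a 2.17-fold rise. The rise was 1.69-fold for asb-2 to asb-1, 1.52-fold for gas-1 to nduf-2.2, and 1.37-fold for both sdha-1 to sdha-2 and asg-2 to asg-1. In each of these 6 ratios all mutant libraries lay above all wild-type libraries. The two-sided exact permutation p was 0.1 for each of the 7 pairs compared, also after Benjamini-Hochberg adjustment, and 0.1 is the smallest that 3 against 3 libraries can give. The remaining pair, cyc-2.1 and cyc-2.2, could not be read as a ratio, since cyc-2.2 had 0 counts in 5 libraries and 2 counts in the other.

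The X-linked genes nonetheless supplied a minor share of each subunit's RNA in both genotypes. Of the summed CPM per kb of the 3 core protein genes, the X-linked ucr-2.1 and ucr-2.2 held 9.47% ± 0.68 in wild type and 19.5% ± 0.15 in the mutant (SD, n = 3). The share of asb-2 in subunit b RNA was 9.68% ± 0.50 in wild type and 15.5% ± 1.85 in the mutant, and that of asg-2 in subunit g RNA was 5.08% ± 0.36 and 6.90% ± 0.33 (SD, n = 3). The X-linked and autosomal RNA together came to 161 ± 6.62 CPM per kb in wild type and 132 ± 5.80 in the mutant for the core protein, and to 301 ± 10.4 and 249.5 ± 4.67 for subunit b (SD, n = 3). For subunit g the sum was 531 ± 28.5 in wild type and 533 ± 1.49 CPM per kb in the mutant (SD, n = 3). In the same libraries the summed level of 15 somatic gonad markers rose from 287 to 305 CPM to 551 to 592 CPM. Of the 12 tested 8 were called higher, and their part in the rise of the X-linked genes was not tested. Among these 12 markers 5 are themselves X-linked, let-2 included. The median log2 fold change of the tested markers was 0.92, or 1.25 without the X-linked ones. Reads with several alignments are held apart from gene counts in these tables, and how many came from these related genes was not tested.

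Complex V, the ATP synthase, was the complex whose genes fell together. Of its 8 autosomal genes 7 were called lower and 0 higher, and their median log2 fold change was -0.33, while of all 10 genes the X-linked asb-2 and asg-2 were the 2 called higher. Autosomal protein-coding genes averaging 64 CPM or more were lower in 52.6%, with a median of -0.12. The alpha subunit gene atp-1 (I, 12652277 to 12654655) was at 964, 1009.7 and 922 CPM in wild type and 779, 709 and 686 CPM in the mutant, without overlap, a log2 fold change of -0.41 ± 0.049 (SE). The beta subunit gene atp-2, added for its level after its values were seen, was at 1758, 1815 and 1888 CPM in wild type and 1468, 1446 and 1356 CPM in the mutant, again without overlap.

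The autosomal stalk genes of complex V moved by similar amounts. Their log2 fold changes were -0.26 ± 0.036 for atp-3, which encodes the protein that confers oligomycin sensitivity, -0.32 ± 0.038 for the coupling factor gene atp-4 and -0.35 ± 0.038 for the subunit d gene atp-5 (SE). For hpo-18, which encodes the epsilon subunit, it was -0.21 ± 0.053 (SE), and this call ended under scaling by library totals. There 6 genes of the complex remained called lower, beside 1864 of all 9787 tested genes. The summed level of the 10 genes was 4104, 4285 and 4282 CPM in wild type and 3458, 3388 and 3269 CPM in the mutant, a change of -20.2%.

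Complex IV, cytochrome c oxidase, had 4 genes higher, 2 lower and 1 not called of 7, at a median log2 fold change of 0.26. Autosomal genes in general were called higher in 26.8% and lower in 34.8%. For autosomal protein-coding genes averaging 64 CPM or more these shares were 21.7% and 52.6%, at a median of -0.12. The largest opposing changes of the whole set among autosomal genes were both here. The gene cox-6A (III, 5081724 to 5082995), for a small membrane subunit, was at 161, 163 and 174 CPM in wild type and 261, 285 and 278 CPM in the mutant. It rose 1.66-fold, at a log2 fold change of 0.73 ± 0.041 (SE) and an edgeR adjusted p of 3.5e-09. The gene cox-7C (I, 9773172 to 9774012), also for a small membrane subunit, was at 177, 188 and 194 CPM in wild type and 112, 104 and 115 CPM in the mutant. It was 1.69-fold lower, at a log2 fold change of -0.76 ± 0.046 (SE) and an edgeR adjusted p of 1.3e-08. Neither gene's genotypes overlapped, and the ratio of cox-6A to cox-7C in CPM within a library went from 0.891 ± 0.024 in wild type to 2.50 ± 0.22 in the mutant (SD, n = 3).

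Among the other subunits of complex IV, cox-6B rose by 0.58 ± 0.039, cox-5A by 0.30 ± 0.030 and cox-5B by 0.26 ± 0.035 on the log2 scale (SE). The gene cox-6C fell by 0.35 ± 0.045 (SE), and cox-4 had a log2 fold change of 0.031 ± 0.037 (SE) and was not called, though it was called higher under scaling by library totals. Per kilobase, cox-7C went from the 4th to the 12th highest of the set and cox-6B from the 7th to the 3rd. The summed level of complex IV was 1335, 1365 and 1391 CPM in wild type and 1588, 1645 and 1636 CPM in the mutant, a change of 19.02%. Within a library the summed CPM of complex IV over that of the autosomal genes of complex V was 0.329, 0.322 and 0.329 in wild type and 0.469, 0.494 and 0.510 in the mutant. This ratio does not depend on how libraries are scaled, and its mutant values lay above all its wild-type values.

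**Figure D3:**
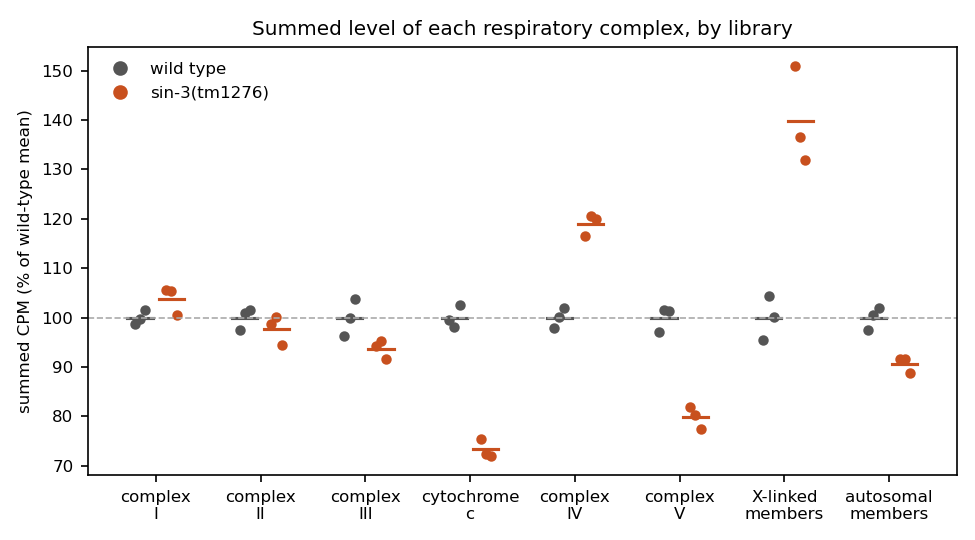
Summed CPM of the genes of each complex and of X-linked and autosomal genes, in each library, as a percentage of the wild-type mean under TMM scaling; points are libraries and bars means of 3. Mutant sums of complex IV lie above all wild-type values (mean change 19.02%). Those of cytochrome c, complex III and complex V lie below all wild-type values (mean changes -26.6%, -6.29% and -20.2%). Those of complexes I and II overlap with wild type.

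The soluble electron carrier cytochrome c is encoded by cyc-2.1 (IV, 4747895 to 4749012) and cyc-2.2, of which the latter had at most 2 reads in any library. The level of cyc-2.1 was 507, 499 and 522 CPM in wild type and 385, 369 and 367 CPM in the mutant. All mutant values were below all wild-type values, at a log2 fold change of -0.45 ± 0.033 (SE) and an edgeR adjusted p of 5.1e-08. The haem lyase gene cchl-1, whose product attaches haem to cytochrome c, went from 158 ± 5.05 to 126 ± 4.18 CPM (SD, n = 3).

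Complex III divided by subunit as well as by chromosome. Under TMM scaling its summed level was 1058, 1098 and 1139 CPM in wild type and 1036, 1045 and 1006 CPM in the mutant, a change of -6.29%. Of its 5 autosomal genes 3 were lower and 2 higher. Autosomal protein-coding genes averaging 64 CPM or more were lower in 52.6% and higher in 21.7%. The Rieske iron-sulphur protein gene isp-1 fell by 0.24 ± 0.040 and the cytochrome c1 gene cyc-1 by 0.32 ± 0.036 on the log2 scale (SE), like ucr-2.3, while the small subunit gene ucr-11 rose by 0.40 ± 0.052 (SE). The call of isp-1 ended under scaling by library totals. The call of ucr-1, the gene of the first core protein, was weak, at a log2 fold change of 0.097 ± 0.037 (SE) and an edgeR adjusted p of 0.035. The 2 genotypes of ucr-1 overlapped, at 332 to 357 CPM in wild type and 354 to 378 CPM in the mutant. Its call ended in DESeq2 (adjusted p = 0.063), with RLE size factors (0.062), with a replicate block (0.051) and without any of 4 single libraries, wild-type replicates 1 and 2 and mutant replicates 1 and 2, where edgeR adjusted p ranged from 0.10 to 0.21.

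The summed levels of complexes I and II changed by 3.86% and -2.23% under TMM scaling, with overlap between genotypes. Under scaling by library totals complex I had 6 genes higher and 0 lower and complex II 2 higher and 0 lower. By that scaling 4446 of all 9787 tested genes were called higher and 1864 lower. Under TMM scaling gas-1 and 3 autosomal genes of the 7 tested genes of complex I were higher, 1 was lower and 2 were not called. Their median log2 fold change was 0.10. Over all tested genes 31.3% were called higher and 30.7% lower under TMM scaling. For autosomal protein-coding genes averaging 64 CPM or more these shares were 21.7% and 52.6%. The autosomal rises in complex I were small, at 0.20 ± 0.040 for lpd-5, 0.12 ± 0.033 for nuo-4 and 0.10 ± 0.035 for the iron-sulphur subunit gene nuo-5 (SE). Without wild-type replicate 2 or without mutant replicate 2 neither nuo-4 nor nuo-5 was called, which left 2 genes of complex I higher. The call of nuo-5 also ended without wild-type replicate 1 and without mutant replicate 1. The accessory subunit gene nuo-6 (I, 7068116 to 7069186) was at 110, 114 and 120 CPM in wild type and 100.1, 99.1 and 96.3 CPM in the mutant, with no overlap and a log2 fold change of -0.22 ± 0.040 (SE). That call ended under scaling by library totals, at a log2 fold change of -0.054. The gene of the NADH-binding subunit, nuo-1, and nuo-2 were not called, at 0.026 ± 0.033 and -0.071 ± 0.037 on the log2 scale (SE); under scaling by library totals both were called higher, at 0.19 and 0.095.

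In complex II, mev-1 (III, 10334277 to 10335168), which encodes the large cytochrome b subunit, was at 57.2, 59.8 and 56.4 CPM in wild type and 50.1, 49.9 and 49.2 CPM in the mutant. The values did not overlap, the log2 fold change was -0.22 ± 0.045 (SE), and the call ended under scaling by library totals, at -0.050. The iron-sulphur subunit gene sdhb-1 and the small cytochrome b subunit gene sdhd-1 stood at -0.020 ± 0.041 and -0.044 ± 0.062 on the log2 scale (SE), were not called and overlapped between genotypes. Both turned positive under scaling by library totals, at 0.15 and 0.12, where sdhb-1 was called higher.

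The authors' deposited table holds all 37 genes and calls 12 higher and 15 lower at an adjusted p under 0.05. How many of all its genes that table calls was not counted. Over all tested genes edgeR called 31.3% higher and 30.7% lower. Of 36 tested genes 34 have the same sign in the authors' deposited table as in edgeR, and 27 of the 30 called by edgeR are called there in the same direction. The others are nuo-5, ucr-1 and asb-2, for which the authors' deposited table gives adjusted p values of 0.14, 0.26 and 0.073.

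Other genes of mitochondrial energy metabolism were taken in lists picked by function. Their counts stand beside 31.3% called higher and 30.7% called lower over all tested genes. Of tested autosomal genes 26.8% were called higher and 34.8% lower, and of autosomal protein-coding genes averaging 64 CPM or more 21.7% and 52.6%. Of 7 tested nuclear subunit genes outside the set, 4 were higher and 2, the already named nduf-2.2 and sdha-2, lower. The complex I subunit genes nduf-9 and nduf-5 went from 146 ± 3.38 to 196 ± 7.08 CPM and from 107 ± 3.78 to 145 ± 6.36 CPM (SD, n = 3). Of 12 tested assembly factor genes 5 were higher and 3 lower, with cox-11, which delivers copper to complex IV, at a log2 fold change of 0.53 ± 0.048 and cchl-1 at -0.33 ± 0.037 (SE). Of 8 genes of coenzyme Q synthesis, which makes the electron carrier between complexes I or II and III, 1 was higher and 4 lower, with coq-8 at -0.47 ± 0.035 and coq-6 at -0.47 ± 0.061 (SE). The medians of these lists were 0.16, 0.076 and -0.15, and the last turned to 0.015 under scaling by library totals.

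The ADP/ATP carrier gene ant-1.1, whose product exports the ATP made by complex V, went from 1908 ± 48.8 to 1419 ± 41.9 CPM (SD, n = 3), giving a log2 fold change of -0.43 ± 0.034 (SE). The ATP synthase inhibitor gene mai-2 went from 118 ± 4.65 to 87.5 ± 4.05 CPM (SD, n = 3), giving a log2 fold change of -0.43 ± 0.043 (SE). These were the 2 genes called lower of 3 tested in a list of 6, against 30.7% lower over all tested genes. Both are autosomal, and autosomal protein-coding genes averaging 64 CPM or more were lower in 52.6%, at a median of -0.12. The X-linked inhibitor gene mai-1 was not called, with a mean of 0.869 ± 0.056 CPM in wild type against 1.14 ± 0.079 in the mutant (SD, n = 3).

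Of 18 genes of pyruvate dehydrogenase and the citric acid cycle, 10 were higher and 7 lower, against 31.3% and 30.7% of all tested genes. The median of the list was 0.10, or -0.031 without 4 X-linked genes. The fumarase gene fum-1, which overlaps a gene on the other strand, went from 108 ± 7.02 to 37.1 ± 2.45 CPM (SD, n = 3), giving a log2 fold change of -1.54 ± 0.058 (SE) and an edgeR adjusted p of 2.2e-10. The succinyl-CoA synthetase gene sucg-1 went from 208 ± 6.23 to 116 ± 1.61 CPM (SD, n = 3), giving a log2 fold change of -0.84 ± 0.035 (SE). The 4 X-linked genes of the list, idhb-1, idh-2, suca-1 and sucl-1, were all called higher, against 61.5% of tested X-linked genes. These 4 had log2 fold changes of 0.66, 0.58, 0.27 and 0.51. They are named after their values were seen, as is sucl-2, the autosomal relative of sucl-1, at -0.44 ± 0.040 (SE).

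**Figure D4:**
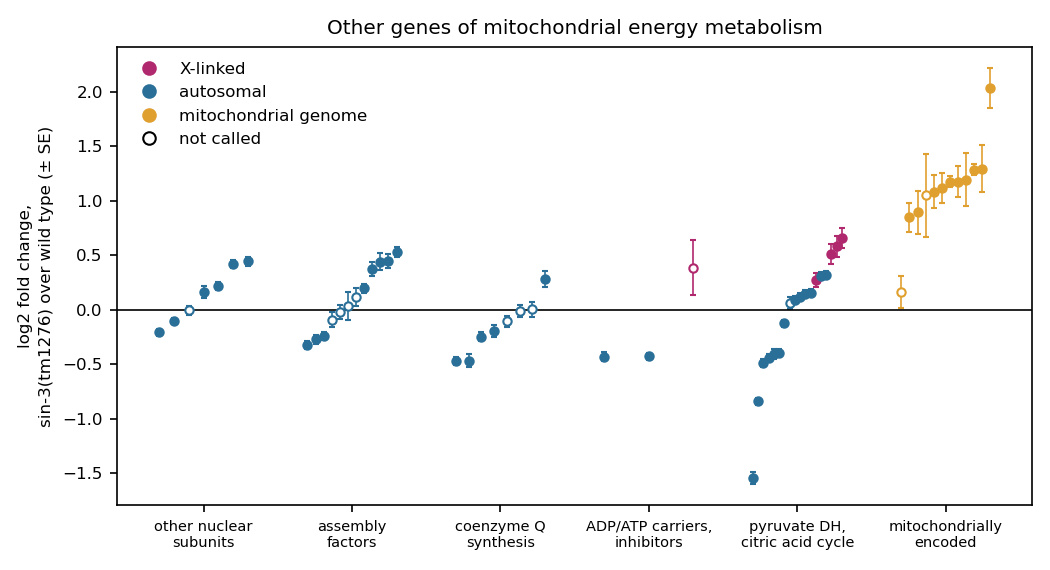
Log2 fold change of tested genes in the 6 lists of mitochondrial energy metabolism under TMM scaling, with standard errors; filled points were called. Nuclear lists spread to both sides of 0, from -1.54 (fum-1) to 0.66 (idhb-1), X-linked genes lie above 0, and genes of the mitochondrial genome lie between 0.16 and 2.04.

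The 12 protein-coding genes of the mitochondrial genome encode further subunits of complexes I, III, IV and V. Among them 10 were called higher and 0 lower, against 31.3% and 30.7% of all tested genes, and their median log2 fold change was 1.15. Their summed level was 12650.3 to 15427 CPM in wild type and 23029 to 31203 CPM in the mutant, and of its complex I genes ND1 went from 691 ± 32.5 to 1559 ± 106 CPM and ND6 from 74.5 ± 6.27 to 182 ± 4.97 CPM (SD, n = 3).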

How the data were processed

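RNA-seq counts per gene from 6 libraries, 3 wild-type and 3 sin-3(tm1276), were used as the authors deposited them, whole numbers with no normalization. The submitters' processing notes name HTSeq 0.7.2, STAR 2.7.3a, DESeq2 1.36.0 and fastp 0.20.1 with no role. Per the labels' protocols, ribosomal RNA was removed before stranded libraries were made and read as single 50-base reads. The genome build, annotation and strand setting were not given in the sources used here. The authors' deposited table supplied log2 fold changes and adjusted p-values, per the file headers.

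Lines naming no gene, 8.73% to 10.9% of counts, were left out. Of 46934 identifiers 46923 matched Ensembl release 115 of WBcel235, which gave names, coordinates and exon lengths. The test of counts was that of edgeR 4.0.16 in R 4.3.3 (filterByExpr, TMM, robust quasi-likelihood F test, Benjamini-Hochberg adjustment). A gene with 0 counts is compatible with up to 3 counts, 0.0942 to 0.130 CPM, for counting error only. Ratios used CPM plus 0.5. Alternatives were library totals, RLE factors, autosomal TMM factors, DESeq2 1.42.0, no filter, a replicate block and leaving out each library. The genes and lists were chosen with earlier results of these data known. All genes of the set could be named; values in every library are given for X-linked genes, their relatives and the 2 largest changes of each complex, and for each other list of energy metabolism the 2 genes with the smallest p are named, while marker lists are given by counts and sums. Nothing was tested over the set itself.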

Additional observations from a re-analysis of the deposited data

How the results depend on the processing

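Under RLE size factors and DESeq2 35 of 36 tested genes of the set kept direction and call, and with no filter all 36 did. Deviations of same-numbered libraries from their genotype means had correlations of -0.25, -0.068 and -0.10. With 3 libraries per genotype these values cannot decide whether the numbers pair the libraries. With a replicate block 14 genes of the set were higher and 15 lower, beside 2906 higher and 2935 lower of all 9787 tested genes. Scaling by library totals gave 20 higher and 11 lower in the set and 14 autosomal genes higher, beside 4446 higher and 1864 lower of all 9787 tested genes. Medians were then 0.15 for the set, 0.27 for complex I, 0.13 for complex II, 0.26 for complex III, 0.42 for complex IV, -0.12 for complex V, 0.60 for X-linked and 0.024 for autosomal genes. The value for cyc-2.1 to cyc-2.2 is no ratio of the genes, as cyc-2.2 is almost without reads and the pseudocount sets the denominator; it went from -0.52 to -0.35 in that scaling. With TMM factors from autosomal genes the medians were 0.030 for the set, 0.15 for complex I, 0.018 for complex II, 0.15 for complex III, 0.31 for complex IV, -0.24 for complex V and -0.093 for autosomal genes. With no filter the autosomal median was -0.063, because nuo-3 was then included.

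Genes that were not called changed sign: under library totals nuo-2 (0.095), sdhb-1 (0.15), sdhd-1 (0.12) and asg-1 (0.15), and under autosomal factors sdhb-1 (0.030), sdhd-1 (0.0055) and asg-1 (0.029). With single libraries left out, sdhd-1 ranged from -0.088 to 0.014, cox-4 from -0.0011 to 0.049 and asg-1 from -0.051 to 0.015. Genes higher then ranged from 12 to 15 in the set and from 6 to 9 among autosomal genes, and genes lower stayed at 15 in both. Over all genes 2682 to 3027 were then called higher and 2865 to 3004 lower, of 10018 to 10149 tested. The 6 X-linked genes stayed higher. Medians ranged from -0.057 to 0.0069 for the set, 0.077 to 0.12 for complex I, -0.071 to -0.0045 for complex II, 0.065 to 0.12 for complex III, 0.23 to 0.27 for complex IV, -0.32 to -0.27 for complex V, 0.37 to 0.47 for X-linked and -0.16 to -0.13 for autosomal genes. The change of log2 ratio ranged from 0.51 to 0.66 for gas-1 to nduf-2.2, 0.41 to 0.49 for sdha-1 to sdha-2, 1.13 to 1.34 for ucr-2.1 to ucr-2.3, 1.1003 to 1.14 for ucr-2.2 to ucr-2.3, 0.65 to 0.83 for asb-2 to asb-1 and 0.40 to 0.50 for asg-2 to asg-1, and for cyc-2.1 over the pseudocount from -0.54 to -0.47, which says nothing of cyc-2.2. DESeq2 and the filter were not applied to these ratios. Standard errors were larger for the X-linked genes, at 0.072 to 0.100 against 0.030 to 0.062 for autosomal genes. The part of their lower counts in this was not tested.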
